A study of Mus musculus with 4 samples.

Results

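RNA sequencing was performed on cultured bone marrow-derived macrophages of 2 genotypes, G3bp1 f/f mice (WT) and G3bp1mac-/- mice (KO), with 2 libraries each, numbered 1 and 2. In the KO mice the floxed G3bp1 gene was deleted by a Cre recombinase driven by Lyz2, a promoter active in monocytes, macrophages and granulocytes. All 4 libraries of the series were used here, and the 2 libraries numbered 2 (WT2 and KO2) were compared with the 2 numbered 1 (WT1 and KO1), with genotype as a blocking term. No stimulus was named for any of the 4 libraries, the age of the mice was not given for these cultures, and neither the labels nor the methods said whether a number marked a mouse, a culture or a day. The p-values therefore measured the spread between these 4 samples, and the libraries of 1 number could share whatever set that number apart.

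Macrophages are phagocytes that sense microbial products and damage through pattern recognition receptors such as Toll-like receptors (TLRs). TLR signalling releases NF-κB, a family of transcription factors (Rela, Rel, Relb, Nfkb1, Nfkb2), from inhibitors of the IκB family, and NF-κB then drives cytokine and chemokine genes together with its own inhibitors. A further arm runs through interferon and its response genes, which carry interferon-stimulated response elements (ISRE). In culture, this state is known as classical activation and stands beside resting, lipid-handling and alternatively activated states.

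The promoters of an NF-κB inhibitor gene and of 3 neighbouring chemokine genes are shown first. They were chosen among the called genes of the NF-κB and chemokine lists whose promoter held the κB motif, so that a match in each follows from the choice. The window of Nfkbie, an inhibitor gene with a larger change than Nfkbia, held no match. Each sequence is the 250 bases before the RefSeq start of the gene (GRCm38.p6), 5′ to 3′ on the strand of the gene, and capitals mark matches to the κB motif, GGG followed by any 2 bases and TTTCC, on either strand. Cxcl3, Cxcl1 and Cxcl2 lie beside each other on chromosome 5 (plus strand), and Nfkbia lies on chromosome 12 (minus strand).
Nfkbia, chr12:55492648-55492897: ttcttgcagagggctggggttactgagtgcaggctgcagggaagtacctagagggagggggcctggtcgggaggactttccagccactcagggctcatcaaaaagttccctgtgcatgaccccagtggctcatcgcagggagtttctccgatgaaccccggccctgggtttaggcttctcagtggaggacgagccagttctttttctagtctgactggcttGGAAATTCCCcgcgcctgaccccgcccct
Cxcl3, chr5:90785851-90786100: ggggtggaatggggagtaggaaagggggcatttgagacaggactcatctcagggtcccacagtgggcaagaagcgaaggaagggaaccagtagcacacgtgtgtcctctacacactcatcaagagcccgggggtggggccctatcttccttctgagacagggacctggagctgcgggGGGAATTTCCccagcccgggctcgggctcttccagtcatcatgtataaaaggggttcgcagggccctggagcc
Cxcl1, chr5:90890995-90891244: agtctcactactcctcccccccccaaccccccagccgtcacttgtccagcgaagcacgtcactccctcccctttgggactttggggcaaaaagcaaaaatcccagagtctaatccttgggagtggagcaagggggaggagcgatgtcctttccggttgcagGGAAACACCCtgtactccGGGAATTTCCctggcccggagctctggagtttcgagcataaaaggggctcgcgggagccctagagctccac
Cxcl2, chr5:90903649-90903898: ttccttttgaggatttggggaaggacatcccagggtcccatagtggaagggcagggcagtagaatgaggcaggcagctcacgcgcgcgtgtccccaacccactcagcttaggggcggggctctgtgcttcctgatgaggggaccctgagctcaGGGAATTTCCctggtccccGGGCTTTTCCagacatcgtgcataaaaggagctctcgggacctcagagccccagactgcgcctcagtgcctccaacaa
The Cxcl1 and Cxcl2 windows held 2 matches each, and those of Cxcl3 and Nfkbia held 1 each. Of all 27025 gene symbols with a window of this length, 1.65% held the motif, as did 1.92% of the 9233 tested symbols with a window. It was found in 3.86% of the genes called higher in number 2 that had a window (19 of 492), in 12.5% of those called more than 16-fold higher (6 of 48) and in 1.92% of those called lower (6 of 312). Among the lists used below, 4 of 20 NF-κB pathway genes, 4 of 18 chemokines and 4 of 22 cytokines and mediators held it. The ISRE motif, TTTC followed by any 2 bases and TTTC, was found in 3.46% of all symbols, in 6.71% of the genes called higher, in 3.21% of those called lower and in 27 of 49 interferon response genes with a window. A match describes the letters of the window and was not taken as a bound site.

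The libraries held between 16724241 and 19747909 counts, and 12418 of 34745 genes had enough counts to be tested. G3bp1, the floxed gene, had 1691 counts in WT1, 1307 in KO1, 2875 in WT2 and 2296 in KO2. These are counts over the whole gene, which do not check the deletion. Its level was 104 and 70.1 CPM, a library-scaled count, in number 1 against 180 and 117 CPM in number 2 (log2 fold change 0.76, adjusted p = 0.0079, under the 2-fold limit). The macrophage markers Cd68 (a lysosomal membrane protein), Lyz2 (lysozyme) and Csf1r (the receptor of the growth factor CSF1) were high in every library. The level of Csf1r was 388 and 402 CPM in number 1 and 631 and 552 CPM in number 2, and none of these 3 genes was called between the numbers (log2 fold change 0.58 for Csf1r, edgeR adjusted p = 0.071). The Y-linked gene Ddx3y had between 830 and 1457 counts in a library, and the X-linked gene Xist between 0 and 2.

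Macrophages of the libraries numbered 2 carried higher levels of inflammatory genes in both genotypes, such as Irg1, Cxcl2, Tnf and Clec4e, and lower levels of genes such as Fbxo32, Arhgap19, Cxcr4 and Cebpa. A total of 1114 genes were called by the edgeR quasi-likelihood test (adjusted p under 0.05 and more than 2-fold). Of these, 684 were higher in number 2 (5.51% of those tested) and 430 were lower (3.46%). A total of 282 genes were called more than 4-fold higher and 63 more than 16-fold higher, and 48 were called more than 4-fold lower and 1 more than 16-fold lower. Some of these passed the filter only through the number in which they were high and had to differ: 69 of the genes called higher had under 10 counts in both number 1 libraries, and 29 of those called lower had under 10 in both number 2 libraries. Without such genes, 216 were called more than 4-fold higher and 32 more than 16-fold higher, against 30 and 0 lower. The difference ran the same way in WT and KO in 1111 of the 1114 called genes, whereas 64.9% of all tested genes had 1 sign in both. The 2 libraries of 1 number did not overlap with those of the other in 670 of the genes called higher and 411 of those called lower, whereas over all tested genes number 2 lay wholly above in 25.2% and wholly below in 23.2%. In both genotypes taken alone, 526 of the genes called higher were more than 2-fold higher, and 266 of those called lower were more than 2-fold lower. These counts follow in part from the test itself, as a gene had to move in 1 direction to be called. The size of the call set depended on the genotype term: 404 genes were called without it, and with 1 library left out as well 542 were called without WT1, 386 without WT2, 849 without KO1 and 518 without KO2.

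**Figure D1:**
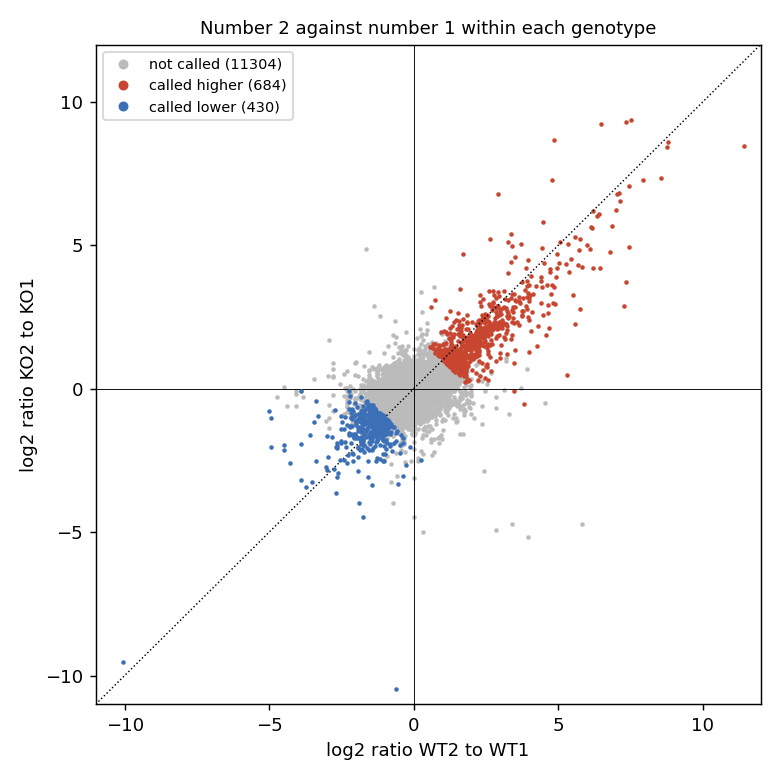
Log2 ratio of library 2 to library 1 within KO (vertical) against that within WT (horizontal), 1 point per tested gene, with called genes in colour and the line of equal ratios dotted. The 684 genes called higher reach ratios above 8 on both axes, and 266 of the 430 genes called lower lie below -1 on both.

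Il1b, the gene of the pyrogenic cytokine interleukin 1β, had 2 counts in WT1 and 3 in KO1 but 6783 in WT2 and 1294 in KO2. It passed the filter through number 2 and so had to differ. Both number 2 libraries were far above both number 1 libraries. Within WT the ratio was 3453 (95% counting interval 955.4 to 28510) and within KO 408.3 (139.4 to 1983), where the interval covers counting error only. Tnf, the gene of tumour necrosis factor, stood at 7.52 CPM in WT1 and 5.26 CPM in KO1 against 1334 CPM in WT2 and 712 CPM in KO2. Its log2 fold change was 7.28 ± 0.31 (SE, n = 2 libraries a side, edgeR adjusted p = 6.8e-115). Here and below, an SE or 95% interval of a log2 fold change was derived from that change and the test statistic. Irg1, which encodes the enzyme that makes itaconate from a citric acid cycle intermediate, rose from 1.85 and 1.02 CPM to 830 and 412 CPM in WT and KO, respectively (log2 fold change 8.74 ± 0.34, edgeR adjusted p = 3.8e-136). With 1 residual degree of freedom the size of such p-values rested on the spread pooled over genes: for Irg1 the adjusted p was 7.5e-12 in edgeR with DESeq2 size factors and 1.2e-13 with no filter, and it ranged from 4.0e-215 to 0.0054 over the alternatives tried, which included limma and DESeq2. Irg1 stayed called in each alternative that gave a p-value.

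The interleukin 12 subunits appeared in number 2 from next to nothing. Il12a had 0 counts in both number 1 libraries, 121 in WT2 and 82 in KO2, which is at least 41.06-fold higher within WT and at least 25.88-fold higher within KO against a floor of 3 counts per library. Il12b, the subunit shared with interleukin 23, had 1 and 0 counts in number 1 and 241 and 336 in number 2. Nos2, the inducible nitric oxide synthase, had 0 counts in both number 1 libraries, and 33 in WT2 and 15 in KO2. Il6 had 2 counts in each number 1 library, 74 in WT2 and 39 in KO2. Il12a, Il12b, Nos2 and Il6 passed the filter through number 2 and had to differ. Nos2 and Il6 thus stayed low also in number 2, at no more than 4.64 CPM for Il6 and 2.07 CPM for Nos2. Il10, the gene of an anti-inflammatory cytokine, had between 4 and 6 counts in every library and was too low to test.

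Of 30 cytokines and mediators listed, 27 passed the filter and 19 were called higher (70.4%, against 5.51% over all tested genes), with none called lower. Their median log2 fold change was 3.20, or 3.03 with the 2 genes at 0 in number 1 set at their bound, against a median of -0.02 over all tested genes. For 9 of the 27, both number 1 libraries were under 10 counts, so that these passed the filter through number 2 and had to differ. Without the filter the median was 3.06. With limma on log2(FPKM + 1) the medians of this list and of the chemokine and NF-κB lists were lower, as given in the last section. The others called higher included Il1a, from 567 and 612 counts to 8939 and 3408, Ptgs2 (cyclooxygenase 2), from 23 and 43 counts to 1990 and 854, and Il1rn, the natural antagonist of interleukin 1, from 1582 and 1100 counts to 3624 and 2831. Genes of the list that were not called included Il18 (log2 fold change 0.55, edgeR adjusted p = 0.19), Tgfb1 (0.45, adjusted p = 0.18) and Vegfa (-0.25, adjusted p = 0.58).

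Chemokines, the secreted proteins that draw leukocytes into tissue, followed. Of 25 listed, 19 were tested and 13 were called higher (68.4%, against 5.51% over all tested genes), with a median log2 fold change of 2.67 (2.48 within KO and higher within WT). Cxcl3 passed the filter through number 2 and had to differ. The neutrophil attractants of the chromosome 5 cluster differed most. Cxcl2 rose from 1.54 and 0.91 CPM in number 1 to 691 and 324 CPM in number 2 (WT and KO), with a log2 fold change of 8.65 ± 0.34 (edgeR adjusted p = 2.8e-133). Cxcl3 had 2 and 4 counts in number 1 and 935 and 779 in number 2. Cxcl1 stood at 3.33 and 3.27 CPM in number 1, and at 589 CPM in WT2 and 103 CPM in KO2. The 2 number 1 libraries were thus nearly equal for Cxcl1, whereas the number 2 libraries were not.

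Ccl9, a chemokine made by macrophages, stood at 203 and 65.2 CPM in number 1 against 3157 and 1452 CPM in number 2 (log2 fold change 4.22 ± 0.27, edgeR adjusted p = 6.1e-53). Ccl3 and Ccl4, which attract monocytes and T cells, rose by 3.58 and 2.97 on the log2 scale, and Ccl2 and Ccl7, ligands of CCR2, by 2.67 and 2.38. Ccl5 had 10 and 13 counts in number 1 and 301 and 168 in number 2. Ccl6 (log2 fold change 0.32, edgeR adjusted p = 0.42), Cxcl12 (-0.23, adjusted p = 0.75) and Pf4 (-0.04, adjusted p = 0.95) were not called, and Cxcl9 and Cxcl11, chemokines induced by interferon γ, had at most 7 and 0 counts in any library.

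**Figure D2:**
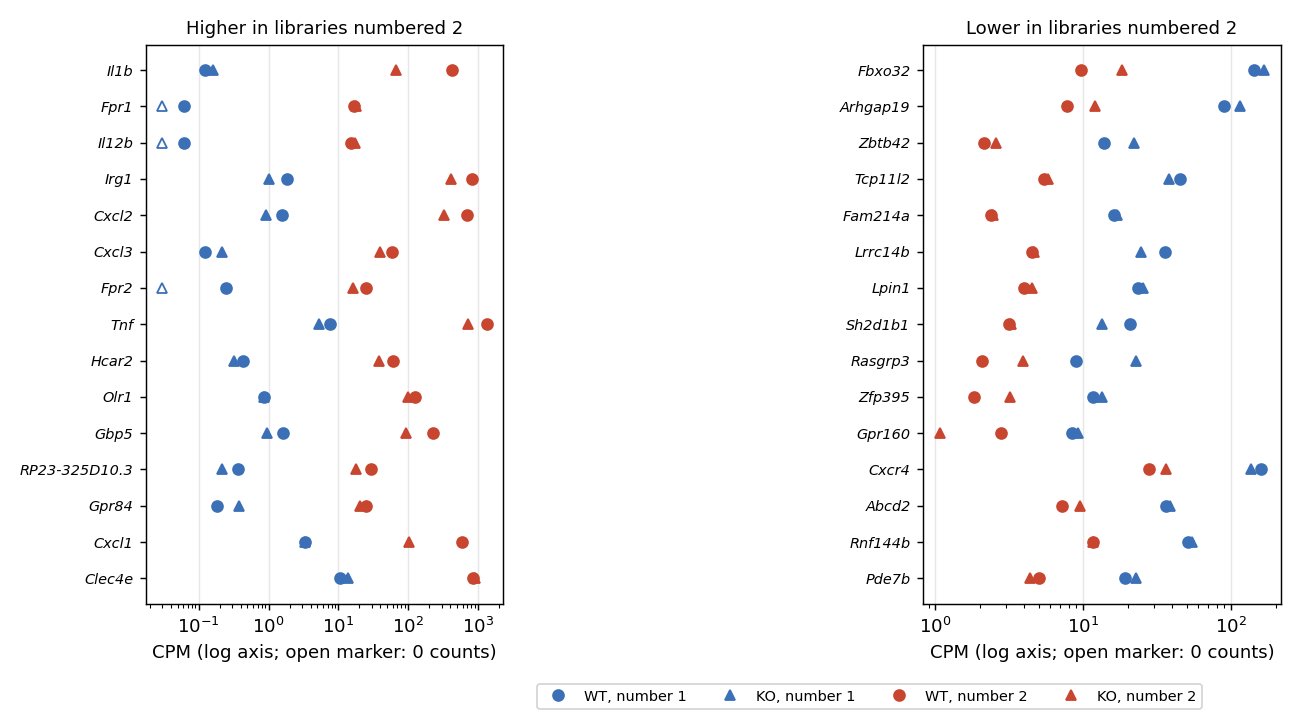
CPM (log axis) in each of the 4 libraries for the 15 genes with the largest rise (left) and the 15 with the largest fall (right). The ranking covers called genes with a mean of at least 5 CPM, a ratio past 2-fold in both genotypes and no symbol of the Gm, Rik or -ps kind. WT is shown as circles, KO as triangles, number 1 in blue and number 2 in red. The genes were chosen for their change, so red and blue markers are separate by selection, and Il1b spans from 0.12 CPM in WT1 to 426 CPM in WT2.

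Of 25 listed genes of the NF-κB pathway and its feedback, 24 were called higher (96%, against 5.51% over all tested genes) and none lower. The list was drawn up with earlier results of these data known and holds effectors such as Icam1 and Sod2. Its share called thus depends in part on that choice. The median log2 fold change was 2.90, with 2.77 within WT and 2.50 within KO, and no gene of the list depended on number 2 to pass the filter. Several members of the IκB family were among the genes called. Nfkbia (IκBα) stood at 32.2 and 25.5 CPM in number 1 and at 533 and 388 CPM in number 2 (log2 fold change 3.99 ± 0.26, edgeR adjusted p = 8.5e-50), Nfkbie at 3.45 and 4.72 CPM against 91.6 and 79.7 CPM, and Nfkbiz, an atypical IκB protein that acts in the nucleus, at 4.50 and 6.01 CPM against 198 and 139 CPM. All 3 separated the numbers completely and differed little between the libraries of 1 number. Tnfaip3 (A20), a ubiquitin-editing enzyme that ends NF-κB signalling, rose by 3.21 on the log2 scale, and Socs3, an inhibitor of cytokine receptor signalling, by 4.01.

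Of the NF-κB subunits, Nfkb2 rose by 3.34, Relb by 2.94, Nfkb1 by 2.51, Rel by 1.93 and Rela by 1.04 on the log2 scale. Rela was thus close to the 2-fold limit (edgeR adjusted p = 0.00018). The effectors included Icam1, an adhesion molecule for leukocytes, with 276 and 357 counts in number 1 and 10879 and 12351 in number 2 (log2 fold change 5.18 ± 0.28, edgeR adjusted p = 2.3e-73), and Sod2, the mitochondrial superoxide dismutase, at 121 and 85.8 CPM against 1066 and 901 CPM. Nfkbid was the gene of the list that was not called (log2 fold change 0.67, edgeR adjusted p = 0.037).

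**Figure D3:**
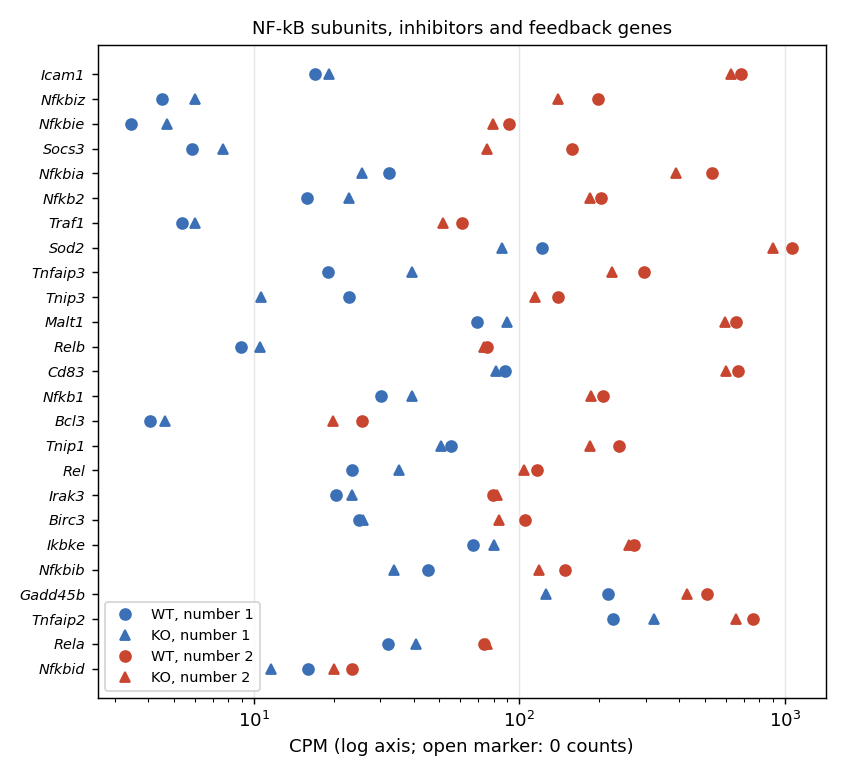
CPM (log axis) of the 25 NF-κB pathway genes in each library, ordered by log2 fold change from Icam1 at the top to Nfkbid at the bottom, with WT as circles, KO as triangles, number 1 in blue and number 2 in red. The red markers lie to the right of the blue ones in every row, and the gap narrows from Icam1 to Nfkbid.

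Sensors changed unevenly. Of 42 TLRs and signalling genes, 39 were tested, 8 were called higher (20.5%, against 5.51% over all tested genes) and none lower, with a median log2 fold change of 0.26. Tlr2, which senses bacterial lipoproteins, had 346 and 417 counts in number 1 and 10528 and 11430 in number 2 (log2 fold change 4.82 ± 0.27, edgeR adjusted p = 3.1e-66). Its partner Tlr1 rose by 2.65, and Cd14, a co-receptor for lipopolysaccharide, by 2.39. Tlr4, the lipopolysaccharide receptor itself, had 256 and 361 counts in number 1 and 199 and 298 in number 2 (log2 fold change -0.35, 95% interval -0.82 to 0.13, edgeR adjusted p = 0.40), and its partner Ly96 was not called either (-0.60, adjusted p = 0.073). Among the cytosolic sensors, Nlrp3, which nucleates an inflammasome, had 47 and 54 counts against 1509 and 1189, and Nod2 and Casp4 rose by 3.13 and 2.78, whereas Aim2 (0.14, adjusted p = 0.79) and Nlrc4 (0.46, adjusted p = 0.26) were not called. Clec4e (Mincle), a lectin that binds mycobacterial glycolipids, stood at 10.5 and 13.8 CPM in number 1 and 848 and 901 CPM in number 2 (log2 fold change 6.17 ± 0.29, edgeR adjusted p = 2.7e-93), and Olr1, a scavenger receptor for oxidised LDL, at 0.86 CPM in both number 1 libraries against 124 and 99.7 CPM.

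Receptors for chemoattractants changed in opposite directions. Of 22 listed, 20 were tested, 6 were called higher (30%, against 5.51% over all tested genes) and 7 lower (35%, against 3.46%), and the median was 0.00. Of those called higher, the formyl peptide receptor Fpr1 had 1 and 0 counts in number 1 and 267 and 346 in number 2, its relative Fpr2 had 4 and 0 against 393 and 320, and Gpr84, a receptor for medium-chain fatty acids, had 3 and 7 against 396 and 405. The 3 genes passed the filter through number 2 and had to differ. Ccrl2 and Cmklr1, receptors of chemerin, rose by 1.94 and 2.08 on the log2 scale. Of those called lower, Cxcr4, the receptor of CXCL12, stood at 159 and 136 CPM in number 1 and at 28.1 and 36.2 CPM in number 2 (log2 fold change -2.20 ± 0.24, edgeR adjusted p = 3.0e-18), and Ccr2, which brings monocytes out of the marrow, at 10.2 and 7.19 CPM against 3.08 and 1.52 CPM. Cxcr2, Cxcr3, C5ar2, Gpr183 and Gpr35 were also called lower, of which Cxcr2 (29 and 25 counts against 1 and 4) and Cxcr3 (26 and 29 against 9 and 9) passed the filter through number 1 and had to differ. C5ar1, the complement C5a receptor, was called higher (1.87), but its number 1 libraries differed from each other, with 1106 counts in WT1 and 194 in KO1 against 1799 and 1753 in number 2.

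Interferon response genes rose in part. Of 67 listed, 63 were tested, 23 were called higher (36.5%, against 5.51% over all tested genes) and none lower, with a median log2 fold change of 0.66 (0.95 within WT and 0.31 within KO). Of the 23, 1 had under 10 counts in both number 1 libraries and had to differ. The guanylate binding protein gene Gbp5 stood at 1.60 and 0.97 CPM in number 1 and at 230 and 92.8 CPM in number 2, and Gbp2 at 19.0 and 18.7 CPM against 308 and 179 CPM. Ifit1, which binds foreign RNA, had 57 and 37 counts in number 1, 531 in WT2 and 164 in KO2. Cxcl10 rose from 11 and 28 counts to 180 and 252. Whether the WT and KO ratios differed was not tested, as the model left 1 residual degree of freedom.

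Some genes of amino acid supply and matrix turnover were called higher. Of 35 tested genes of the integrated stress response, the pathway through which ATF4 raises amino acid transport and synthesis, 11 were called higher (31.4%, against 5.51% over all tested genes) and none lower (median 0.69 over all, and 0.68 within either genotype). Slc7a11, the cystine transporter, had 139 and 218 counts in number 1 and 2072 and 3139 in number 2 (log2 fold change 3.84 ± 0.26, edgeR adjusted p = 9.8e-47), and Chac1, which degrades glutathione, rose by 2.65. Of the 20 tRNA synthetases, 18 had a positive log2 fold change (median 0.55, against -0.02 over all tested genes). Iars and Yars were called higher (10%, against 5.51% over all tested genes). Both were close to the 2-fold limit, and neither held under every alternative. With scaling to library totals alone Iars had 0.91 and Yars 0.94, and Iars also fell under the limit with no filter (0.99). The unfolded protein response of the endoplasmic reticulum had a median of 0.00, with 1 of 29 genes called higher (3.45%, against 5.51% over all tested genes) and none lower. The gene called was Herpud1, which rose by 2.20. Of 21 tested matrix proteases and inhibitors, 7 were called higher (33.3%, against 5.51% over all tested genes) and none lower. Mmp14, a membrane-bound collagenase, had 350 and 1017 counts against 4638 and 6203 (log2 fold change 3.13 ± 0.25, edgeR adjusted p = 5.7e-33), and Serpinb2, an inhibitor of plasminogen activators, rose by 3.11. Met, the receptor of hepatocyte growth factor, rose by 3.25, while its ligand Hgf fell by 1.24 on the log2 scale. Tnfrsf1b, the second TNF receptor, stood at 381 and 471 CPM in number 1 and 2600 and 2388 CPM in number 2.

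Early response genes, which growth factors and stress induce through AP-1 and related factors, were split. Of 38 tested, 13 were called higher (34.2%, against 5.51% over all tested genes) and 1 lower (2.63%, against 3.46%), with a median of 0.21. Of the 13, 1 had under 10 counts in both number 1 libraries and had to differ. Ier3, a stress-induced survival gene, had 303 and 189 counts in number 1 and 1436 and 912 in number 2 (log2 fold change 2.23 ± 0.25, edgeR adjusted p = 4.8e-17), and Junb, an AP-1 subunit, rose by 1.34. The prototypes of this response did not rise, as Fos had 254 and 269 counts against 155 and 145 (-0.83, edgeR adjusted p = 0.0096, under the 2-fold limit) and Egr1 17 and 42 against 23 and 24 (-0.29, adjusted p = 0.77). Klf4 was the gene called lower (-1.34).

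Among antigen presentation genes, the costimulatory receptor Cd40 differed most of 17 tested, with 32 and 44 counts in number 1 and 2038 and 1511 in number 2 (log2 fold change 5.5 ± 0.30, edgeR adjusted p = 1.2e-70). Ciita, the master regulator of MHC class II transcription, rose by 1.79, whereas the class II genes themselves were not called, with log2 fold changes of 0.51 for H2-Ab1 (edgeR adjusted p = 0.12) and 0.39 for Cd74 (adjusted p = 0.28). Of 33 targets and regulators of NRF2, the oxidant-sensing transcription factor, 5 were called higher (15.2%, against 5.51% over all tested genes) and none lower. Nfe2l2, which encodes NRF2, rose by 1.29, Sqstm1 by 1.70, Txnrd1 by 1.69 and Osgin1 by 1.21, beside Slc7a11, while Hmox1 (0.45, adjusted p = 0.20) and Nqo1 (0.13, adjusted p = 0.88) were not called. Of 19 tested iron genes, 5 were called higher (26.3%, against 5.51% over all tested genes) and 2 lower (10.5%, against 3.46%), and the importers Slc11a2 and Slc39a14 rose by 1.61 and 2.10 and Slc40a1, the iron exporter ferroportin, had 139 and 85 counts against 30 and 44 (-1.60, adjusted p = 1.8e-05).

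The genes that were lower formed no list as compact as the inflammatory ones. Fbxo32, a subunit of a ubiquitin ligase known from muscle wasting, stood at 143 and 168 CPM in number 1 and at 9.66 and 18.4 CPM in number 2, which was 11.5-fold lower (log2 fold change -3.52 ± 0.25, edgeR adjusted p = 8.7e-41). Arhgap19, a GTPase-activating protein, fell from 1450 and 2146 counts to 124 and 237. Lpin1, a phosphatidate phosphatase of lipid synthesis, had 379 and 470 counts in number 1 and 63 and 89 in number 2. These genes were chosen for the size of their fall, and the others so chosen were Zbtb42, Tcp11l2, Fam214a, Lrrc14b, Sh2d1b1, Rasgrp3, Zfp395, Gpr160, Abcd2, Rnf144b and Pde7b (with Cxcr4), with log2 fold changes between -2.90 and -2.16.

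Macrophage identity genes were mixed. Of 28 tested, 5 were called higher (17.9%, against 5.51% over all tested genes) and 3 lower (10.7%, against 3.46%), with a median of 0.06. The transcription factors moved apart: Spi1 (PU.1) and Cebpb rose by 1.12 and 1.25 on the log2 scale, while Cebpa stood at 154 and 198 CPM in number 1 and 54.1 and 60.9 CPM in number 2 (log2 fold change -1.61 ± 0.23, edgeR adjusted p = 2.0e-10). Fcgr1, the high-affinity IgG receptor, fell by 1.40. Adgre1 (F4/80) was just past the limit, at 364 and 368 CPM against 816 and 677 CPM (log2 fold change 1.02, edgeR adjusted p = 0.00023), and it fell under the limit with scaling to library totals alone (0.93). Itgam (CD11b) was counted under 2 gene identifiers at overlapping positions, of which one had 2936 and 5784 counts in number 1 and 1973 and 4477 in number 2, and the other 1756 and 980 against 4161 and 2325. Their sum was 4692 and 6764 against 6134 and 6802, so that the 2 identifiers moved apart while the sum moved less.

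Of 37 tested genes of lipid efflux, storage and oxidation, 3 were called higher (8.11%, against 5.51% over all tested genes) and 4 lower (10.8%, against 3.46%). Pparg, a fatty acid-sensing nuclear receptor, stood at 147 and 120 CPM in number 1 and 59.6 and 59.5 CPM in number 2 (log2 fold change -1.16 ± 0.23, edgeR adjusted p = 1.1e-05), and its target Fabp4, a fatty acid-binding protein, had 23061 and 13038 counts against 6946 and 7611. Abcg1 fell by 1.31 while the other cholesterol exporter, Abca1, rose by 1.82, and Fabp3 rose by 2.90. Of the alternative activation genes, 8 of 28 were called higher (28.6%, against 5.51% over all tested genes) and 2 lower (7.14%, against 3.46%), and those higher included Ccl22 and Tgm2, beside Cish, which had 3 counts in each number 1 library and passed the filter through number 2. In the list for uptake of apoptotic cells, 7 of 38 were called higher (18.4%, against 5.51% over all tested genes) and 2 lower (5.26%, against 3.46%). The receptor Axl rose by 1.25 and the scramblase Xkr8 by 2.38, while P2ry6, a nucleotide receptor, fell by 1.66 and Cd300lf by 1.38. Mertk was not called (-0.74, edgeR adjusted p = 0.016, under the 2-fold limit), and Tyro3 had at most 6 counts in any library.

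Few proliferation genes were called. The median log2 fold change was -0.36 over 56 DNA replication genes, with 1 called higher and 2 lower, and -0.23 over 78 mitosis genes, with 1 higher and 4 lower. The shares called lower, 3.57% and 5.13%, were near the 3.46% over all tested genes. Those called higher, 1.79% and 1.28%, were under the 5.51% over all tested genes. Mki67 was the mitosis gene called higher (1.37), but it had 88 counts in WT1 and 471 in KO1 against 514 and 620 in number 2, so that WT1 alone stood apart.

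**Figure D4:**
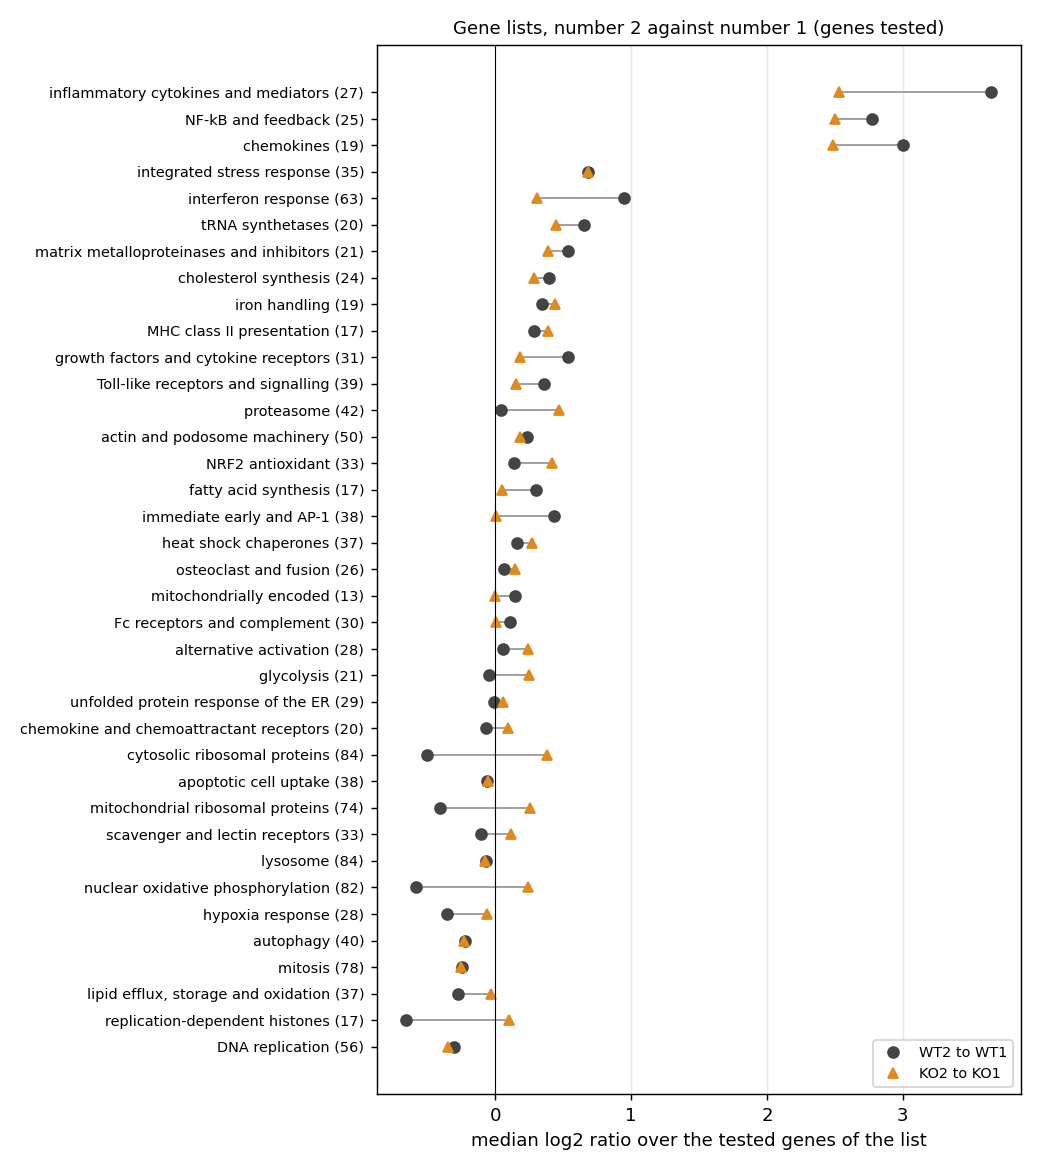
Median log2 ratio of number 2 to number 1 over the tested genes of each list of programmes or organelles with at least 13 tested genes (number tested in brackets, marker lists of cell types not shown), within WT as circles and within KO as triangles. The cytokine, NF-κB and chemokine lists lie between 2.48 and 3.65 in both genotypes, and every other list shown lies between -0.66 and 0.95.

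Markers of other cell types were checked beside these results, since Il1b, Clec4e, Fpr1 and Cxcl2 are also transcripts of neutrophils. Of 24 neutrophil genes, 12 were tested, and Lcn2 and Mmp9 were called higher (16.7%, against 5.51% over all tested genes). Cxcr2 was called lower (8.33%, against 3.46%). The neutrophil list summed to 240 and 141 CPM in number 1 and to 295 and 176 CPM in number 2. Lcn2 had 9 and 14 counts in number 1 and 247 and 276 in number 2. S100a8 had 235 and 133 counts in number 1 and 242 and 209 in number 2, S100a9 had 91 and 2 against 82 and 1, and Ly6g had at most 1 in any library. Mpo and Elane, which are made mainly by neutrophil precursors, had 0 counts in every library. Of 16 tested dendritic cell genes, Zbtb46, Ccl22 and Fscn1 were called higher (18.8%, against 5.51% over all tested genes) and none lower. The dendritic cell list summed to 1006 and 1012 CPM against 1455 and 1364 CPM. The part of neutrophil RNA in the inflammatory genes was not tested. Of 15 tested monocyte genes, 5 were called higher (33.3%, against 5.51% over all tested genes), and Ccr2 was called lower (6.67%, against 3.46%). The monocyte list summed to 531 and 565 CPM in number 1 and to 1561 CPM in each number 2 library, of which Clec4e took 10.5 and 13.8 CPM in number 1 and 848 and 901 CPM in number 2. Stromal genes summed to 171 and 645 CPM in number 1 and 233 and 611 CPM in number 2, with 2 of 27 called higher (Vcam1 and Pdgfrb, 7.41% against 5.51% over all tested genes) and Kitl lower (3.7% against 3.46%). In bulk RNA, a change in the share of a cell type and a change in RNA per cell cannot be told apart.

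Technical measures of the libraries differed little between the numbers. The 10 most abundant genes took 18.5% and 17.2% of the counts in WT1 and KO1 and 16.7% and 16.8% in WT2 and KO2, and mitochondrial genes between 2.40% and 2.67%. The ratios did follow gene length, in opposite directions in the genotypes. From the shortest to the longest of 5 equal groups of genes, the median log2 ratio went from -0.26 to 0.17 within WT and from 0.14 to -0.12 within KO, which left -0.08 to 0.01 in the fit with genotype as a block. With the length trend of each library removed, 1137 genes were called, of which 1098 were among the 1114. The part of the length trend in lists of short genes, such as ribosomal proteins, was not tested.

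**Figure D5:**
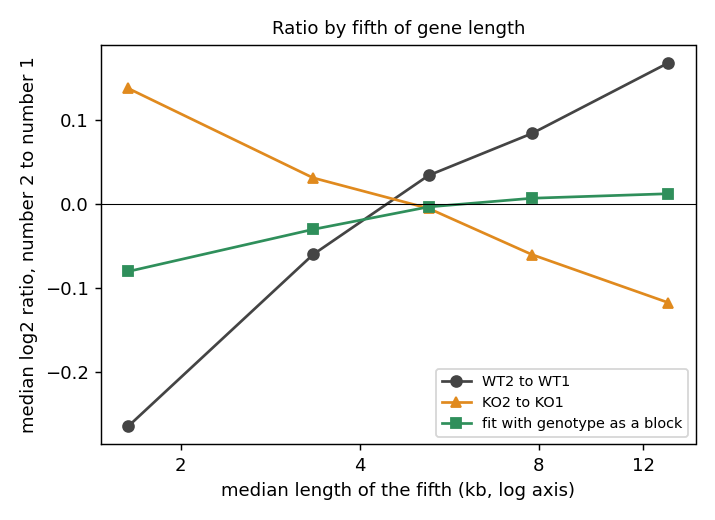
Median log2 ratio of number 2 to number 1 for 5 equal groups of genes by length (horizontal, kilobases on a log axis), within WT (circles), within KO (triangles) and in the fit with genotype as a block (squares). The WT and KO lines cross near 0, from -0.26 and 0.14 in the shortest group to 0.17 and -0.12 in the longest, and the blocked fit stays between -0.08 and 0.01.

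Counts at overlapping or near-identical genes were uncertain. Of the 1114 called genes, 194 (17.4%) overlapped another tested gene, as did 20.8% of all tested genes. The gene with the largest fall, Gm20716, had 545 and 351 counts in number 1 and 0 in both number 2 libraries, so that it passed the filter through number 1, and it overlaps Adnp and Dpm1 on the same strand, and the 3 genes together had 1258 and 1170 counts in number 1 and 1065 and 1296 in number 2. Hist2h2aa1, a histone gene with the near-identical copy Hist2h2aa2, was called lower on 0 counts in KO2 against 711 in WT2.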

How the data were processed

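RNA sequencing of 4 macrophage libraries, 2 per genotype and 2 per replicate number, was deposited as 1 table. The authors filtered reads with Seqtk, aligned them with HISAT2 2.0.4 and counted fragments per gene with StringTie 1.3.3b, and deposited raw counts with an FPKM value beside each. The ratio of deposited count to FPKM implied the same length for a gene in all libraries (within 0.00398% over 10564 genes above 20 counts throughout), so FPKM added no information. The submitters' processing notes name mm39, whereas 27686 of the 34267 genes found in GENCODE M21 had its start and end, so positions are given on GRCm38. Whether counting used the strand is not given in the sources used here.

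Here, edgeR 4.0.16 (R 4.3.3) was run on the counts: filterByExpr by number (minimum count 10, minimum total count 15), TMM scaling (factors 0.9545 and 1.115 in number 1, 0.9419 and 0.9974 in number 2), a model of genotype plus number, the two-sided quasi-likelihood test (glmQLFit, glmQLFTest) and Benjamini-Hochberg adjustment over all tested genes. Calls needed both an adjusted p below 0.05 and a log2 fold change beyond 1, as in the study's methods. CPM use TMM-scaled totals, and "a and b" values are in the order WT and KO. Log2 ratios within a genotype had 0.5 counts added. The ratios of Il1b given with counting intervals had no counts added, and those intervals are exact binomial (95%). Neither kind of ratio carries a test. A floor of 3 counts per library equals 0.152 to 0.188 CPM, and reads carried no molecular identifiers. No library was a copy of another (lowest chi-square per degree of freedom between any pair 22.7).

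The comparison, the gene lists and the genes named were chosen with earlier results of these data known. The genes named were fixed markers, the 15 genes with the largest change in each direction among those called with a mean of at least 5 CPM, a ratio past 2-fold in both genotypes and no symbol of the Gm, Rik or -ps kind (a clone-named gene, RP23-325D10.3, was kept), up to 8 called genes per list, and the 3 most abundant genes of a list with none called. Others were named after their values were seen, to complete a list or pathway. Of the 34745 gene identifiers, 34267 were in GENCODE M21, and 59 symbols named more than 1 gene. Promoter windows are from RefSeq (GRCm38.p6), matched by symbol, and searched on both strands with no test. Alternatives used DESeq2 1.42.0 and limma 3.58.1. The fit was checked on simulated counts. Some results are not reported here.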

Additional observations from a re-analysis of the deposited data

Results flagged for a closer look

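Among lists with at least 5 tested genes, 4 had medians that went in opposite directions in the genotypes, with each at least 0.2 from 0 on the log2 scale. Cytosolic ribosomal protein genes (84 tested) had a median log2 ratio of number 2 to number 1 of -0.50 within WT and 0.38 within KO. Nuclear genes of oxidative phosphorylation (82 tested) had -0.58 within WT and 0.24 within KO, and mitochondrial ribosomal protein genes (74 tested) had -0.41 and 0.26. Endothelial genes (5 tested) had 0.39 within WT and -0.50 within KO. Below that number, the erythroid and megakaryocyte list (4 tested) had -0.71 within WT and 0.73 within KO. The difference between the genotypes was not tested, as each rests on 1 library per number and genotype. None of the ribosomal and oxidative phosphorylation genes was called between the numbers. With 2 libraries a side, no library was tested as standing apart from its group.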

How the results depend on the processing

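No paired analysis was possible because the replicate number is itself the factor compared, and genotype was the block of the fit. The number of genes called was 404 without the genotype term (genes called higher 319, genes called lower 85). With 1 library left out as well, it was 542 without WT1 (377 and 165), 386 without WT2 (313 and 73), 849 without KO1 (578 and 271) and 518 without KO2 (406 and 112). The DESeq2 Wald test called 245 genes lower and glmTreat against a 1.5-fold change 223, and with no minimum fold 1974 were called (1138 higher, 836 lower). limma on log2(FPKM + 1) called 512 (375 higher, 137 lower), and its median log2 fold change, inflammatory cytokines and mediators was 0.94, median log2 fold change, chemokines 1.77 and median log2 fold change, NF-kB and feedback 1.99. With 1 library left out, the NF-kB median was between 2.50 and 2.77. The cause was not tested.

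Some genes that were not called changed sign near 0. With library totals alone, Cd68 had -0.074, Atp5a1 -0.038, Rpsa -0.079, Tpsb2 -0.022, Blnk -0.040 and mt-Co2 -0.0045. With limma, Cd68 had -0.074, Atp5a1 -0.037, Rpsa -0.079, Tpsb2 -0.019, Blnk -0.038 and mt-Co2 -0.0042. Rpsa had -0.0035 with no filter and -0.012 without the genotype term, where Tpsb2 had -0.054 and Hbb-bs -0.078. With the length trend removed, Rpl4 had 0.0075, mt-Co1 0.0031 and Lyz2 0.020.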
